A study of Homo sapiens with 28 samples.

Results

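NFE4 and DCAF4L1 are 2 human genes whose array signal was higher after treatment with the DNMT1 inhibitor GSK3484862 in each of 7 acute myeloid leukaemia (AML) cell lines. They were taken as all probe sets annotated to either symbol, which gave 1 probe set for each, 2 of 27306 probe sets, and 2 of 11676 genes with a probe set of their own. Both were selected for their rise under the inhibitor, so their levels and changes are given below as a description, with standard errors and with no test. The established lines were SKM1, THP1, GDM1, MOLM13, NOMO1, SKNO1 and SHI1, and their RNA was hybridised to 28 Affymetrix U133 Plus 2.0 arrays. Cultures were kept for 96 hours in 1 µM GSK3484862 or in 0.1% DMSO, the vehicle, and the series describes the 2 arrays of each of the 14 groups as biological duplicates. Each group is thus a single established AML line at 1 dose and 1 time, and every control culture carried the vehicle.

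DNMT1 is the maintenance DNA methyltransferase: it copies CpG methylation onto the new DNA strand after replication, and dense CpG methylation at a promoter is a mark of many silent genes. NFE4, on chromosome 7, was named for an erythroid protein that joins the CP2 transcription factor (TFCP2) in the stage selector protein, a complex studied at the fetal globin genes. RefSeq lists the gene (Entrez 58160, probe set 1560527_at) as a long non-coding RNA that lies within the span of another gene, FBXL13. DCAF4L1, on chromosome 4 (Entrez 285429, probe set 1562209_at), is listed as protein-coding and is named as a relative of DCAF4, a substrate receptor of the CUL4-DDB1 ubiquitin ligase, in which a DCAF protein holds the target while CUL4 and its partners attach ubiquitin.

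The signals are log2 values as deposited, between a floor of 2.13 and a highest value of 16.81, with array medians of 8.33 to 8.51 and duplicates that correlated across genes at r of 0.99 or more. Values at the floor have no order, and a rise from a signal near it is limited by it. Of the 15 myeloid markers looked up, 13 were measured, and PTPRC (CD45) was at 11.53 or more in every treated array and at 11.23 or more in every DMSO array. For the transcription factor SPI1 the lowest arrays were at 9.31 with GSK3484862 and at 8.85 with DMSO. Other markers were far lower in some arrays. The lowest treated and DMSO arrays were at 2.14 and 2.20 for ELANE, 3.13 and 2.82 for AZU1, and 5.85 and 2.21 for ANPEP. The 13 markers were thus not all high in every array. On average 10 of the 13 rose and 0 fell, against 23.2% and 28.6% of all genes, and their mean level per line was 9.29 to 12.83 with GSK3484862 and 8.50 to 12.35 with DMSO, so myeloid marker signal moved with treatment beside the results below and its part in them was not tested. Among 14 erythroid markers only the erythropoietin receptor gene EPOR was measured, at 3.73 to 8.60 in treated arrays and 4.71 to 8.22 in DMSO arrays. Of 12 lymphoid markers 6 were measured, at a mean of 5.33 to 8.11 per treated line and 5.18 to 8.37 per DMSO line. These means hide unlike members. The highest treated and DMSO arrays were at 13.94 and 14.65 for CD3D and 12.67 and 12.4 for NKG7, but at 4.46 and 6.7 for EBF1. On average 2 of the 6 rose and 1 fell (33.3% and 16.7%, against 23.2% and 28.6% of all genes).

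NFE4 was higher in both treated arrays than in both DMSO arrays of all 7 lines. In SKM1 it stood at 8.17 and 8.63 with GSK3484862, against 2.33 and 2.78 with DMSO, a change of 5.85 ± 0.19 (log2, GSK3484862 minus DMSO, SE of the fit over all lines). THP1 gave 6.93 and 6.89 with GSK3484862, against 2.57 and 2.57 with DMSO, a change of 4.34 ± 0.19. For GDM1 the arrays read 6.07 and 6.86 with GSK3484862, against 2.33 and 2.33 with DMSO, a change of 4.14 ± 0.19. These 3 lines therefore had an NFE4 signal close to the lower end of the scale under DMSO and a clear signal after treatment. The value 2.33 is the lowest this probe set took, and it recurred in both GDM1 DMSO arrays and in 1 SKM1 DMSO array.

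The other 4 lines carried NFE4 signal before treatment and gained less on the log2 scale. In MOLM13 the arrays read 11.01 and 10.98 with GSK3484862, against 9.22 and 9.22 with DMSO, a change of 1.77 ± 0.19, or 3.4-fold. NOMO1 was at 9.11 and 9.07 with GSK3484862, against 7.68 and 7.58 with DMSO, a change of 1.46 ± 0.19, or 2.7-fold. The levels in SKNO1 were 11.49 and 11.61 with GSK3484862, against 10.24 and 10.18 with DMSO, a change of 1.34 ± 0.19, or 2.5-fold. SHI1 moved least: its arrays read 10.51 and 10.47 with GSK3484862, against 9.74 and 9.58 with DMSO, a change of 0.83 ± 0.19, or 1.8-fold. Whether more cells carried the transcript or each cell carried more of it cannot be told apart in these bulk samples.

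**Figure D1:**
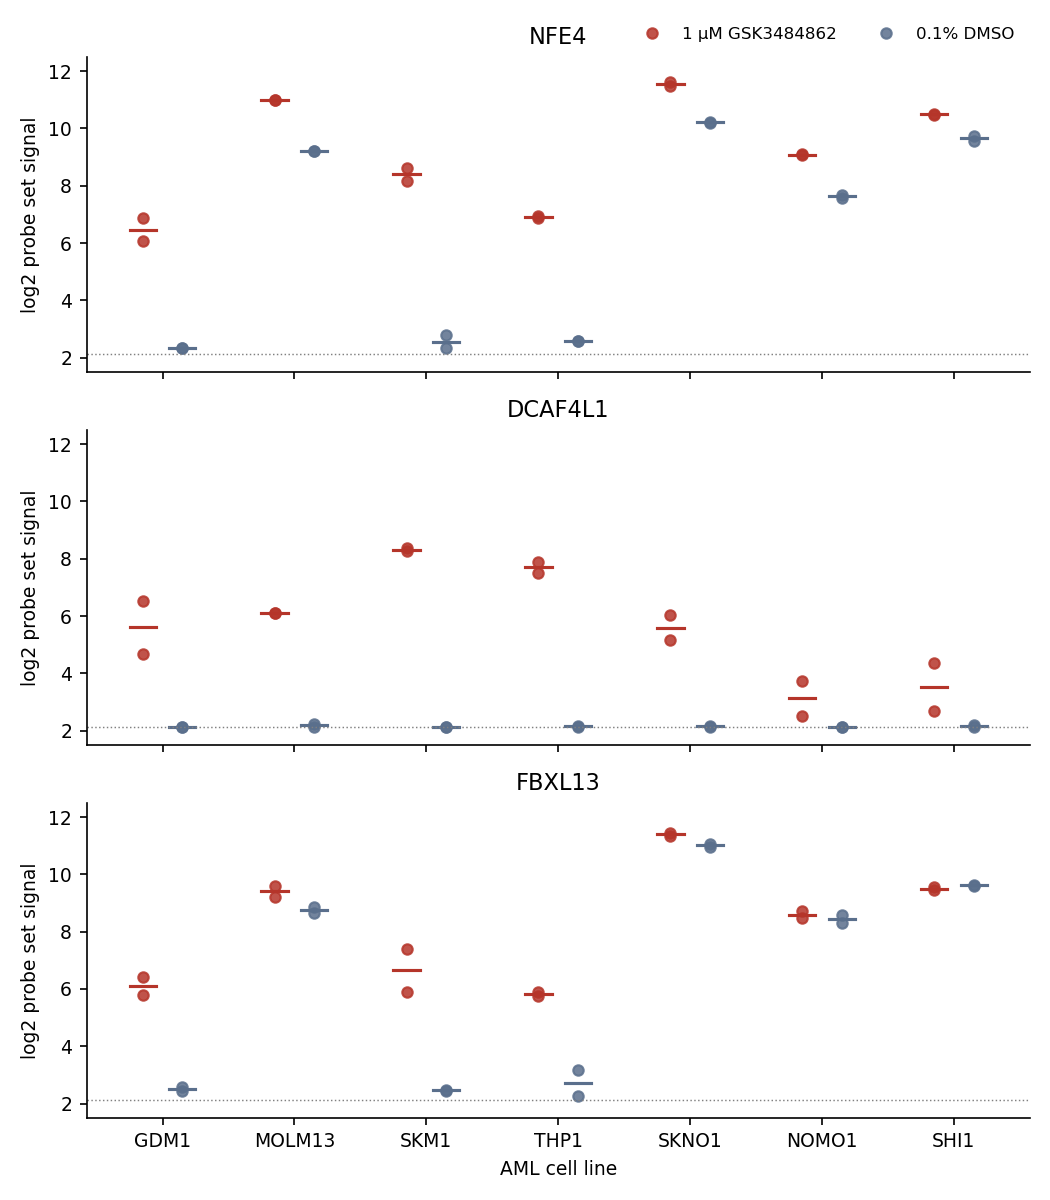
Log2 probe set signal of NFE4, DCAF4L1 and FBXL13 (vertical axes) in each AML cell line (horizontal axis); each point is 1 array, red for 1 µM GSK3484862 and blue for 0.1% DMSO, each bar is the mean of 2 arrays, and the dotted line is the lowest value of the table, 2.13. NFE4 has DMSO signal in 4 lines (7.58 to 10.24), DCAF4L1 has none above 2.23 in any line, and FBXL13 moves in the 3 lines in which NFE4 is low under DMSO.

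Over the 7 lines the change in NFE4 averaged 2.82 ± 0.07, the 7th largest rise among the 11676 genes, next to COL14A1 (2.92) above it and S100P (2.42) below it. The SE measures the spread between duplicates. The line changes themselves had a median of 1.77 and an SD of 1.93, and no 1 value describes them, because 3 lines lay above 4 and 4 lines lay below 2. Within single lines its rise ranked between 6th (THP1) and 224th (SHI1). Both treated arrays lay above both DMSO arrays in all 7 lines for 1.09% of all genes, and since NFE4 was chosen for its rise, nothing is read from its place among them.

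The order of the lines differed between the NFE4 level and its change. Treated levels ran SKNO1 (mean 11.55), MOLM13 (10.99), SHI1 (10.49), NOMO1 (9.09), SKM1 (8.40), THP1 (6.91) and GDM1 (6.46), and no neighbours in that order had overlapping duplicates. With DMSO the order was SKNO1 (10.21), SHI1 (9.66), MOLM13 (9.22), NOMO1 (7.63), THP1 (2.57), SKM1 (2.55) and GDM1 (2.33). There the SKM1 duplicates overlapped those of THP1 and met those of GDM1, while both THP1 arrays lay above both GDM1 arrays. By change, SKM1 came first, THP1 and GDM1 overlapped, MOLM13 followed, NOMO1 and SKNO1 overlapped, and SHI1 was last. The lines were closer to one another after treatment: the SD of the 7 line means was 1.99 with GSK3484862 and 3.67 with DMSO.

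DCAF4L1 differed from NFE4 in its starting point. All 14 DMSO arrays lay between 2.13 and 2.23, at or next to the floor, and the order of the lines there carries no information. The 14 treated arrays lay between 2.52 and 8.37, all above every DMSO array. With both genes both treated arrays lay above both DMSO arrays in 7 of 7 lines, as was so for 1.09% of all genes. Both were chosen for their rise, so nothing is read from this count. For DCAF4L1 every change is a distance from the floor, which bounds it, and differences between lines in the change follow the treated level.

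SKM1 had the highest DCAF4L1 signal, at 8.37 and 8.26 with GSK3484862, against 2.14 and 2.13 with DMSO, a change of 6.18 ± 0.52. THP1 followed, at 7.90 and 7.50 with GSK3484862, against 2.14 and 2.16 with DMSO, a change of 5.55 ± 0.52. The same 2 lines are among the 3 with the largest NFE4 changes. In MOLM13 both treated arrays read 6.12, against 2.23 and 2.14 with DMSO, a change of 3.93 ± 0.52. GDM1 gave 6.52 and 4.69 with GSK3484862, against 2.14 and 2.13 with DMSO, a change of 3.47 ± 0.52. For SKNO1 the treated arrays were at 5.16 and 6.02, against 2.14 and 2.15 with DMSO, a change of 3.45 ± 0.52. The SE of 0.52 is pooled over all 14 groups and is the same for every line. It therefore does not measure how far apart the duplicates of a single line lay. The treated duplicates of GDM1 overlapped those of MOLM13 and those of SKNO1, while both MOLM13 arrays lay just above both SKNO1 arrays.

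The smallest DCAF4L1 signals came from SHI1 and NOMO1, and both rest on 1 array. SHI1 read 4.36 and 2.67 with GSK3484862, against 2.13 and 2.21 with DMSO, a change of 1.35 ± 0.52 that became 0.50 without the first treated array. In NOMO1 the values were 3.74 and 2.52 with GSK3484862, against 2.13 and 2.14 with DMSO, a change of 1.00 ± 0.52 that became 0.38 without the first treated array. The treated duplicates of DCAF4L1 were far apart in GDM1 (SD 1.293), SHI1 (1.196), NOMO1 (0.864) and SKNO1 (0.609). They were closer in THP1 (0.285), SKM1 (0.074) and MOLM13 (0.004). Pooled over lines their SD was 0.784, against 0.033 within DMSO duplicates at the floor and a median SD between duplicates of 0.133 over all genes.

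The change in DCAF4L1 averaged 3.56 ± 0.20 over the 7 lines, the 3rd largest among 11676 genes, between MAGEB2 (3.81) and NAV3 (3.52). That SE measures the spread between duplicates, and the 7 line changes themselves had an SD of 1.93. Single-line ranks ran from 3rd (THP1) to 201st (NOMO1). NFE4 and DCAF4L1 were little alike in level: over the 14 group means, which share lines and arrays, Pearson's r between them was 0.287, and over the 7 treated means it was -0.366. Their changes were more alike, with r of 0.827 over the 7 lines. That likeness ranked 142nd among all genes seen from NFE4 and 90th seen from DCAF4L1. The NFE4 level under DMSO and the DCAF4L1 change had r of -0.637 over the 7 lines. These are descriptions over few points, and the floor under both genes bounds the changes they use.

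The gene most like NFE4 over the 14 group means was FBXL13 (r 0.970), an F-box protein gene of the SCF ubiquitin ligases, inside whose RefSeq span NFE4 lies. It was measured by 1 probe set. In SKM1 FBXL13 read 5.90 and 7.40 with GSK3484862, against 2.45 and 2.46 with DMSO, a change of 4.19 ± 0.35 (adjusted p = 1.98e-07). GDM1 had 5.80 and 6.41 with GSK3484862, against 2.56 and 2.45 with DMSO, a change of 3.60 ± 0.35 (adjusted p = 6.76e-07). THP1 had 5.77 and 5.88 with GSK3484862, against 2.25 and 3.17 with DMSO, a change of 3.11 ± 0.35 (adjusted p = 2.47e-05). FBXL13 thus rose in the 3 lines in which NFE4 was low under DMSO. Among all genes 14.1% were called up in SKM1, 13.3% in GDM1, 5.4% in THP1, 13.7% in MOLM13, 4.21% in NOMO1, 2.96% in SKNO1 and 2.52% in SHI1.

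In the 4 lines with NFE4 signal under DMSO, FBXL13 also had DMSO signal and its change did not pass the test. MOLM13 had 9.23 and 9.60 with GSK3484862, against 8.67 and 8.87 with DMSO (0.65 ± 0.35, adjusted p = 0.184). SKNO1 had 11.36 and 11.46 with GSK3484862, against 10.96 and 11.07 with DMSO (0.40 ± 0.35, adjusted p = 0.641). NOMO1 had 8.72 and 8.47 with GSK3484862, against 8.57 and 8.31 with DMSO (0.15 ± 0.35, adjusted p = 0.867). SHI1, where NFE4 changed by 0.83, had an FBXL13 signal of 9.55 and 9.45 with GSK3484862, against 9.64 and 9.59 with DMSO (-0.11 ± 0.35, adjusted p = 0.982). The average FBXL13 change was 1.71 ± 0.13 (adjusted p = 2.49e-08), but with the 7 lines as the units of the test it did not pass (adjusted p = 0.103). Because the genes overlap and the files give no probe positions or strand, how much of each signal comes from transcripts of the other gene cannot be told apart.

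The 250 bases before the annotated start of FBXL13 are shown because this is the promoter window of the gene that holds NFE4. RefSeq places them at chr7:103074797-103075046 (GRCh38.p14, minus strand). CpG dinucleotides, the sites DNMT1 acts on, are in capitals.
FBXL13: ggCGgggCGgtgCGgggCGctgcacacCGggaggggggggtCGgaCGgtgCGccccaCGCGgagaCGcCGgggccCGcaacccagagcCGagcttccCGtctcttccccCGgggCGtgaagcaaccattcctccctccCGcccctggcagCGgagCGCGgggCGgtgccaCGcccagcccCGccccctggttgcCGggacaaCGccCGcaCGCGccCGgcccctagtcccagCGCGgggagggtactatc
The window holds 32 CpGs and 78.0% G or C. Over 35114 RefSeq promoter windows of the same length the median is 11 CpGs, and 9.52% hold at least 32. ARMC10, the neighbouring gene on the other strand, starts 344 bases away, and its own window, which overlaps this one, has 30 CpGs. Methylation was not among the measurements used here, so the CpG count describes the sequence alone.

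The other 4 genes most like NFE4 in level were FAM185A (r 0.902), RNF24 (0.868), which encodes a RING finger protein, GMIP (0.858), a GTPase-activating protein gene, and the non-coding RNA gene CHROMR (0.857). Their average changes were small beside that of NFE4: 0.46 ± 0.10 for FAM185A, 0.42 ± 0.08 for RNF24, 0.46 ± 0.07 for GMIP and 0.15 ± 0.07 for CHROMR. Likeness of the changes over the 7 lines was a different order, with r of 0.984 for FBXL13, 0.674 for RNF24, 0.643 for GMIP, 0.228 for FAM185A and -0.326 for CHROMR. The 14 points share lines and arrays, and NFE4 under DMSO was low in 3 lines and high in 4; r was not computed within either set of lines.

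The 10 measured genes nearest NFE4 on chromosome 7, 5 on each side in the RefSeq gene table (GRCh38.p14), were not chosen by how they moved. On average 2 rose and 3 fell, against 23.2% up and 28.6% down among all 11676 genes, and the median change was -0.08, against -0.02 over all genes. Beside FBXL13, FAM185A rose by 0.46 ± 0.10 (adjusted p = 0.00124). ARMC10, which starts beside FBXL13 on the other strand, fell by 0.34 ± 0.03 (adjusted p = 1.29e-07) and was called lower in 6 lines, where the share of all genes called lower ran from 3.12% in SKNO1 and 7.55% in NOMO1 to 20.5% in GDM1. Its treated arrays lay below its DMSO arrays in SHI1 too, at 10.56 and 10.64 with GSK3484862, against 10.82 and 10.79 with DMSO (-0.20 ± 0.08, adjusted p = 0.229). The ribosome-associated chaperone gene DNAJC2 fell by 0.20 ± 0.03 (adjusted p = 0.000122), and PMPCB, a mitochondrial processing peptidase subunit, fell by 0.12 ± 0.03 (adjusted p = 0.00165). Both of these calls were lost with lines as units (adjusted p = 0.0545 for DNAJC2 and 0.122 for PMPCB). The 5 others, POLR2J2, SPDYE2, POLR2J, NAPEPLD and DPY19L2P2, had changes of -0.11 to 0.08 and did not pass.

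**Figure D2:**
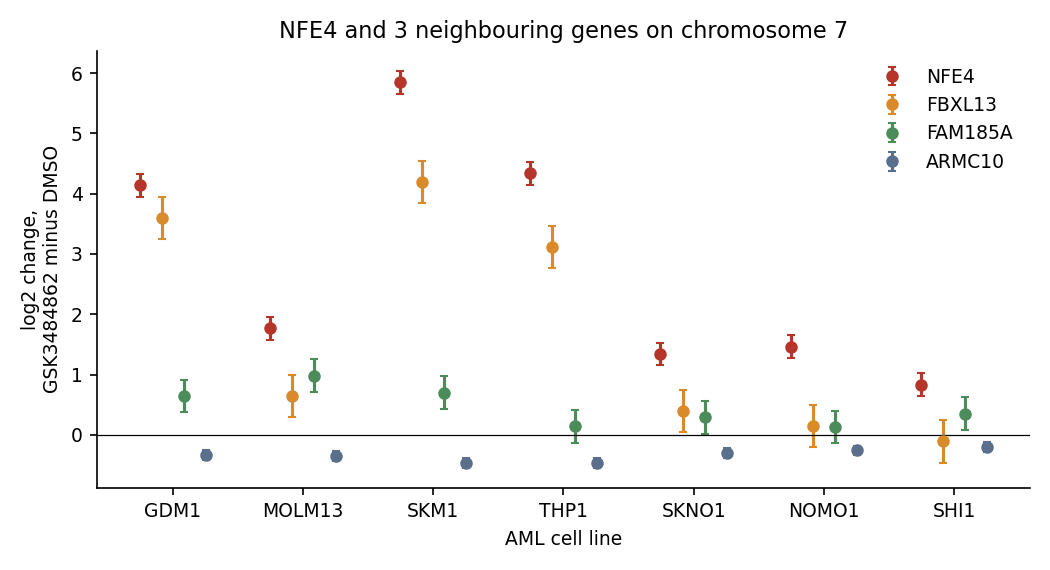
Log2 change (GSK3484862 minus DMSO, vertical axis) of NFE4 and 3 neighbouring genes in each AML cell line (horizontal axis), with error bars of 1 standard error from the fit over all lines. NFE4 lies at 0.83 or more in every line, FBXL13 lies at 3.11 or more in GDM1, SKM1 and THP1 and at 0.65 or less in the others, and ARMC10 lies below 0 in all 7.

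For DCAF4L1 the gene most alike over the 14 group means was GCNA (r 0.935), the germ cell nuclear acidic peptidase gene on the X chromosome. In SKM1 it stood at 11.86 and 11.72 with GSK3484862, against 6.03 and 5.75 with DMSO, a change of 5.90 ± 0.23. The changes in SKNO1, THP1, GDM1 and MOLM13 were 2.97, 2.80, 2.06 and 1.86. In NOMO1 (0.05 ± 0.23) and SHI1 (-0.02 ± 0.23) the GCNA duplicates of the 2 treatments overlapped, and these are the lines with the lowest DCAF4L1 signal. SKM1 was highest for both genes, and the r over the 7 changes was 0.903. GCNA differed from DCAF4L1 in having DMSO signal in all lines, at 5.75 to 7.10.

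The 250 bases before the annotated GCNA start are shown as the promoter window of the gene closest to DCAF4L1 in pattern. RefSeq places them at chrX:71578187-71578436 (GRCh38.p14, plus strand), again with CpGs in capitals.
GCNA: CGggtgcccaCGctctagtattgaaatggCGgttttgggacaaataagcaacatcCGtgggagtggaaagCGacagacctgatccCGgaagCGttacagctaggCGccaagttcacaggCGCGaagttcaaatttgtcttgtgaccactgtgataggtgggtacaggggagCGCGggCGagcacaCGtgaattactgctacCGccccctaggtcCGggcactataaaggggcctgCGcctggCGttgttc
It holds 18 CpGs and 56.8% G or C, and 36.8% of all windows hold at least as many CpGs. A window with at least 1 CpG is the rule, at 93.9% of all.

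Next in likeness to DCAF4L1 came FKBP1B (r 0.848), which encodes an immunophilin that binds ryanodine receptors, the cancer-testis antigen gene MAGEA4 (0.830), the class V myosin gene MYO5C (0.797) and NXT2 (0.746), a nuclear RNA export factor gene. Their average changes were 1.96 ± 0.15 for FKBP1B, 3.17 ± 0.12 for MAGEA4, 1.98 ± 0.15 for MYO5C and 0.74 ± 0.03 for NXT2. MAGEA4 was at the floor in all 4 arrays each of GDM1, NOMO1 and SHI1, whereas DCAF4L1 had treated arrays above its DMSO arrays there. In THP1 MAGEA4 read 11.65 and 11.52 with GSK3484862, against 2.31 and 3.60 with DMSO. FKBP1B, like DCAF4L1, was low in SHI1, at 2.31 and 2.50 with GSK3484862, against 2.13 and 2.13 with DMSO (0.27 ± 0.40).

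**Figure D3:**
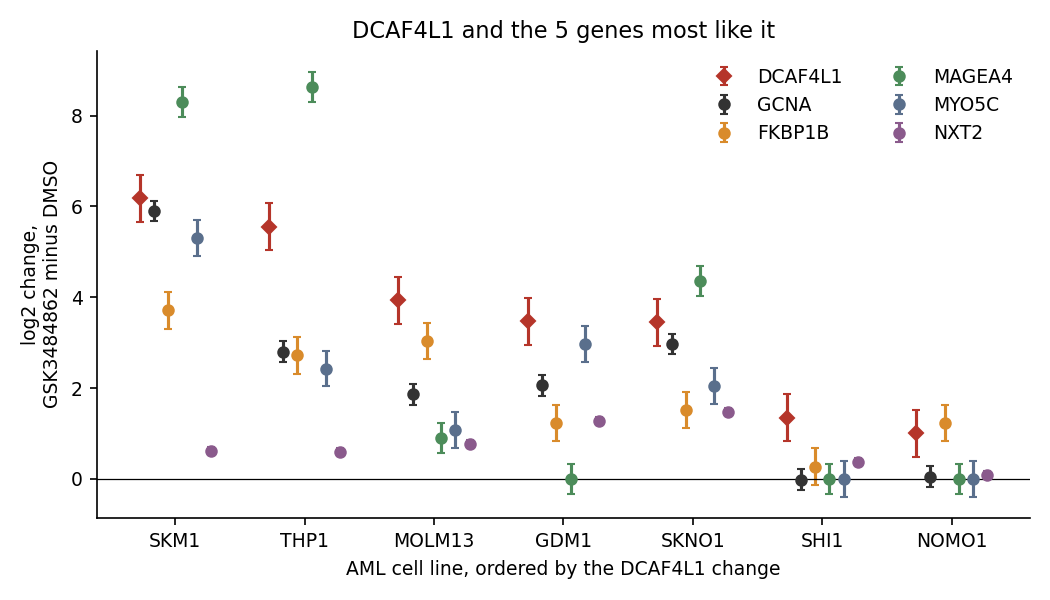
Log2 change (GSK3484862 minus DMSO, vertical axis) of DCAF4L1 and the 5 genes with the highest r to it over the 14 group means, by AML cell line in the order of the DCAF4L1 change (horizontal axis), with error bars of 1 standard error. DCAF4L1 and GCNA are both largest in SKM1, and GCNA and MAGEA4 lie near 0 in SHI1 and NOMO1.

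Among the 10 measured genes nearest DCAF4L1 on chromosome 4, 2 rose and 4 fell on average (20% and 40%, against 23.2% and 28.6% of all genes), and the median change was -0.10. RHOH, a GTPase gene of blood cells, rose by 0.87 ± 0.11 (adjusted p = 6.12e-06), though not with lines as units (adjusted p = 0.0745). It had treated signal well above DMSO in NOMO1, at 7.02 and 7.90 with GSK3484862, against 5.78 and 5.35 with DMSO (1.89 ± 0.29, adjusted p = 0.000484), whereas in GDM1 it read 9.71 and 10.08 with GSK3484862, against 10.53 and 10.51 with DMSO (-0.63 ± 0.29, adjusted p = 0.113). The RNA-binding protein gene RBM47 rose by 0.72 ± 0.22 (adjusted p = 0.0134), or by 0.47 with the mean of its probe sets, and the call was lost without SHI1 (0.59, adjusted p = 0.0558) and without probe sets prone to cross-hybridise (0.25, adjusted p = 0.349).

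The nearest measured gene on each side of DCAF4L1 fell slightly. TMEM33, an endoplasmic reticulum membrane protein gene, fell by 0.23 ± 0.06 (adjusted p = 0.00296), and the zinc transporter gene SLC30A9 fell by 0.11 ± 0.03 (adjusted p = 0.00214), or by 0.18 with the mean of its probe sets. GUF1, a mitochondrial translation factor gene, fell by 0.19 ± 0.04 (adjusted p = 0.0004). BEND4 passed at -0.11 ± 0.04 (adjusted p = 0.0424) but the call was lost in 30 of 44 alternatives, among them quantile normalization and most fits without a single array, and without SKM1 its change was -0.01 (adjusted p = 0.817). With lines as units these 4 falls were not called, at adjusted p = 0.0539 for TMEM33, 0.145 for SLC30A9, 0.116 for GUF1 and 0.43 for BEND4. APBB2, N4BP2, SHISA3 and ATP8A1 had changes of -0.14 to -0.02 and did not pass.

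**Figure D4:**
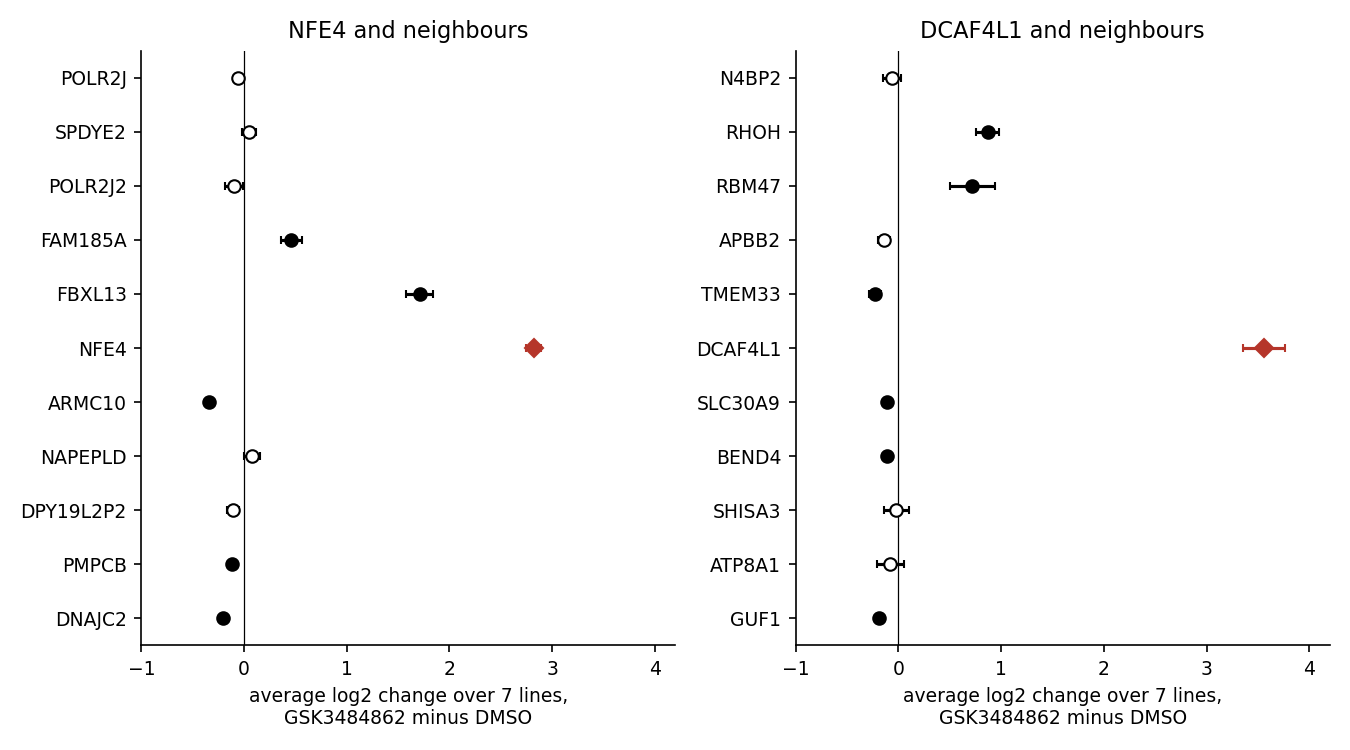
Average log2 change over the 7 lines (GSK3484862 minus DMSO, horizontal axes) of NFE4 and DCAF4L1 (red diamonds) and their 10 nearest measured genes each, in chromosome order down the vertical axes, with error bars of 1 standard error. Filled circles passed at an adjusted p under 0.05 and open circles did not; FBXL13 at 1.71 and RHOH at 0.87 are the largest neighbours.

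The CP2 gene TFCP2, whose product is the partner of the protein NFE4 was named for, averaged -0.07 ± 0.04 (adjusted p = 0.176). Of 42 genes listed as CP2 family members or regulators of the fetal globin genes, 37 were measured. On average 4 rose and 13 fell (10.8% and 35.1%, against 23.2% and 28.6% of all genes), with a median change of -0.04. The 4 largest calls were all falls. LIN28B, an RNA-binding protein gene of the fetal programme, fell by 0.40 ± 0.07 (adjusted p = 0.000105), mostly in SKM1 (-2.20), and by 0.11 without that line. BCL11A, a repressor of fetal globin genes, fell by 0.36 ± 0.05 (adjusted p = 1.15e-05). Falls of 0.32 ± 0.04 for the histone demethylase gene KDM1A (adjusted p = 2.92e-06) and 0.30 ± 0.04 for the NuRD subunit gene MBD3 (adjusted p = 1.2e-05) also passed with lines as units, at adjusted p = 0.0404 for each, whereas LIN28B (adjusted p = 0.326) and BCL11A (adjusted p = 0.127) did not.

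The globin, haem and red cell list had 21 of 47 members measured, and 6 rose and 6 fell (28.6% each, near the 23.2% and 28.6% of all genes), with a median change of 0.06. The fetal globin genes HBG1 and HBG2 had no probe set of their own among the deposited values. Probe sets annotated to several genes were left out, so the level of HBG1 and HBG2 was not examined here. HBQ1, the theta globin gene, averaged -0.46 ± 0.12 (adjusted p = 0.00531) and was at the floor in 19 of 28 arrays. Its change was -0.30 without GDM1 and -0.25 without SKM1. NFE2, an erythroid and megakaryocyte transcription factor gene, rose by 0.41 ± 0.07 (adjusted p = 0.000181), but by 0.25 without MOLM13 and by 0.27 without THP1. CA2, a carbonic anhydrase gene of red cells, rose by 0.37 ± 0.05 (adjusted p = 5.87e-06), but by 0.14 without GDM1. ALAS1, the first enzyme of haem synthesis in most tissues, rose by 0.36 ± 0.03 (adjusted p = 1.7e-07). With lines as units HBQ1 (adjusted p = 0.244), NFE2 (0.249), CA2 (0.259) and ALAS1 (0.0557) were not called.

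The delta globin gene HBD was chosen after its values were seen, so it is described with no test. It moved in opposite directions in the 2 lines with a clear signal. GDM1 had 7.81 and 7.91 with GSK3484862, against 6.91 and 7.01 with DMSO (0.90 ± 0.23). SKM1 had 3.02 and 2.13 with GSK3484862, against 5.15 and 5.72 with DMSO (-2.86 ± 0.23). The NFE4 change was positive in both lines, and a link between the 2 genes was not tested. Of the 28 HBD values, 20 were at the floor.

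DCAF4L1's named relative DCAF4 averaged -0.16 ± 0.03 (adjusted p = 0.000293), and in no line was it called up. In SKM1, where DCAF4L1 was highest, DCAF4 read 8.33 and 8.34 with GSK3484862, against 8.48 and 8.30 with DMSO (-0.06 ± 0.08, adjusted p = 0.669). In MOLM13 it was lower, at 9.58 and 9.56 with GSK3484862, against 9.98 and 9.86 with DMSO (-0.35 ± 0.08, adjusted p = 0.00354). The call on the average was lost with lines as units (adjusted p = 0.0802).

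Of 30 listed DCAF substrate receptors 25 were measured, and 2 rose and 9 fell (8% and 36%, against 23.2% and 28.6% of all genes), with a median change of -0.07. The largest falls were ERCC8 (CSA, of transcription-coupled repair) at -0.49 ± 0.04 (adjusted p = 2.93e-08) and DTL (CDT2, which directs the destruction of CDT1) at -0.39 ± 0.03 (adjusted p = 1.1e-08). GRWD1 averaged -0.28 ± 0.04 (adjusted p = 2.64e-05) and DCAF17 -0.27 ± 0.04 (adjusted p = 7.76e-05). With lines as units ERCC8 still passed (adjusted p = 0.0404), while DTL (0.0707), GRWD1 (0.0836) and DCAF17 (0.0541) did not.

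The CUL4 ligase core and its regulators, 27 of 29 measured, gave 1 rise and 14 falls (3.7% and 51.9%, against 23.2% and 28.6% of all genes), with a median change of -0.06. DDB1, the adaptor that holds DCAF proteins, fell by 0.11 ± 0.03 (adjusted p = 0.00215). The scaffold gene CUL4A averaged -0.06 ± 0.07 (adjusted p = 0.526), and 2 of its 3 other probe sets moved the other way. The 4 largest calls were DCUN1D5 at -0.42 ± 0.03 (adjusted p = 7.56e-09) and DCUN1D4 at -0.31 ± 0.05 (adjusted p = 6.66e-05), which promote attachment of NEDD8 to cullins, the signalosome subunit COPS7B at -0.37 ± 0.04 (adjusted p = 2.8e-06), and DET1, a CUL4 ligase partner, at -0.35 ± 0.06 (adjusted p = 6.9e-05). The other DCUN1D5 probe sets averaged 0.03 and -0.06, and the mean of all its probe sets -0.15. COPS7B averaged -0.21 without probe sets prone to cross-hybridise. With lines as units DCUN1D5 passed (adjusted p = 0.0422), while COPS7B (0.0622), DET1 (0.0506), DCUN1D4 (0.0507) and DDB1 (0.157) did not.

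**Figure D5:**
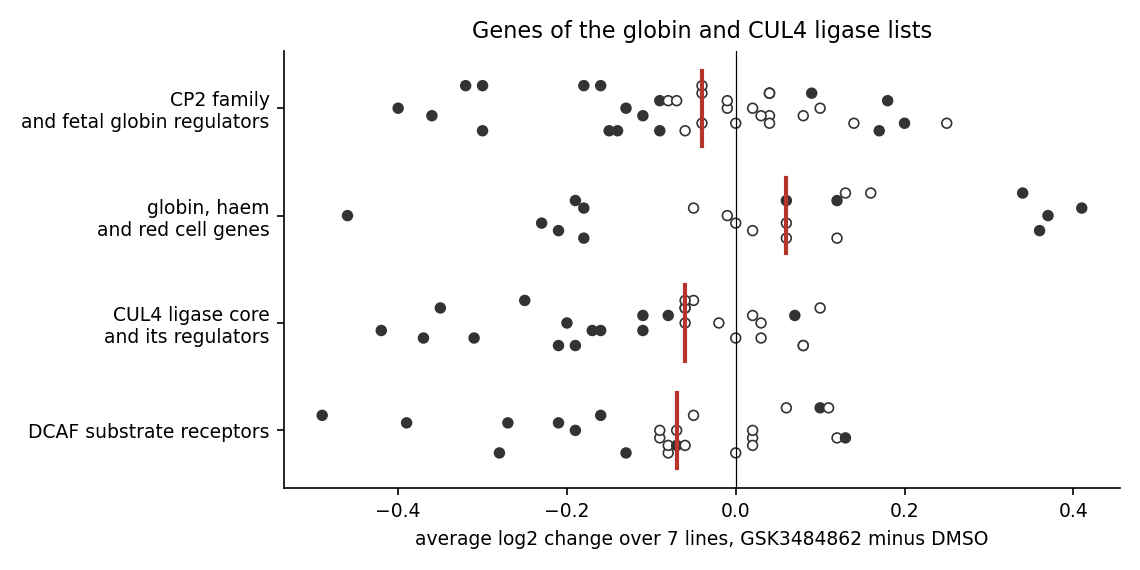
Average log2 change over the 7 lines (GSK3484862 minus DMSO, horizontal axis) of each measured gene of the 4 lists (vertical axis, with circles spread apart for legibility only). Filled circles passed at an adjusted p under 0.05, open circles did not, and red bars mark list medians, which lie between -0.07 and 0.06.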

How the data were processed

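RNA from 7 AML lines was measured on 28 arrays, and the labels gave line, treatment and replicate number. The authors deposited 1 table of log2 signals for 27306 probe sets. The submitters' processing notes name limma, with no version or role. How background, summarisation, normalization and filtering were handled is not given in the sources used here. The values were used as deposited. Of the probe sets, 22580 had 1 gene symbol in the platform annotation, 1098 several and 3628 none listed, and 22567 matched the RefSeq gene table (GRCh38.p14) by gene identifier, with 0 symbols changed. The brightest probe set, by its mean over the 28 arrays, stood for each of 11676 genes.

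All genes were fitted in R 4.3.3 with limma 3.58.1 in 1 model of 14 groups, with 14 residual degrees of freedom. P-values are two-sided, adjusted by Benjamini-Hochberg over all genes and called under 0.05. They measure the spread between duplicates, and with lines as units the error was the spread of the 7 line changes. On simulated data 98% of 50 genes raised by 0.5 and 92% of 50 genes lowered by 0.5 were recovered in the average over lines. The simulated shift was the same in all 7 lines, with normal noise and no floor. Recovery of changes that differ between lines or start at the floor was therefore not measured.

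The members and the lists were chosen with earlier results of these data known. Named were NFE4 and DCAF4L1, the 5 genes with the highest Pearson r to each over the 14 group means, from each list the called members with the largest absolute average change (at most 4), TFCP2, DCAF4, DDB1 and CUL4A, and the called genes among the 5 nearest measured on each side. The 4 lists were CP2 family and fetal globin regulators, globin, haem and red cell genes, the CUL4 ligase core, and DCAF substrate receptors. Promoter windows came from RefSeq, for 10 of 13 genes looked up. Alternatives were quantile normalization, centring, the mean of probe sets, leaving out probe sets prone to cross-hybridise, a replicate block, trend and robust options, array weights, a filter on dim genes, separate fits per line, lines as units, a stricter threshold, and each line or array left out. Precision is limited by the number of arrays.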

Additional observations from a re-analysis of the deposited data

Results flagged for a closer look

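The moderated F-test of differences in the change between the 7 lines was adjusted over all genes. It passed for 14 of the 31 named list and neighbour genes, and for 37.5% of all 11676 genes. Most of the 31 were named because they were called on average in these same arrays, so nothing is read from that count. Among the neighbours of NFE4 and DCAF4L1 the F-test passed for FBXL13 (adjusted p = 5.2e-06), RHOH (0.00333) and BEND4 (0.0152). FBXL13 ran from 4.19 in SKM1 to -0.11 in SHI1, and RHOH from 1.89 in NOMO1 to -0.63 in GDM1. Among regulators of the fetal globin genes it passed for LIN28B (adjusted p = 2.57e-05), lowest in SKM1 at -2.20, and BCL11A (0.000879), lowest in GDM1 at -1.04. Among globin and red cell genes it passed for HBQ1 (adjusted p = 0.0132), NFE2 (0.00034), CA2 (7.34e-06) and ALAS1 (0.00101); NFE2 was at 1.39 in MOLM13 and -0.48 in SKNO1, and CA2 at 1.77 in GDM1. Among the ligase genes it passed for DCUN1D5 (adjusted p = 0.00084), COPS7B (0.00583), ERCC8 (0.00687), DTL (2.08e-05) and GRWD1 (0.0137), with DTL at -1.07 in GDM1 and -0.01 in NOMO1. NFE4 and DCAF4L1 were not tested for a difference between lines, since they were chosen for this contrast. Groups of 2 arrays are too small to look for single arrays that stand apart.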

How the results depend on the processing

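The changes of NFE4 and DCAF4L1 kept their sign with quantile normalization, with centring, and with arrays or lines left out. Both genes were chosen for their rise, so the kept sign is a description only. Both probe set choices, the replicate block and separate fits per line were also run, but they cannot move these changes. Each gene has 1 probe set, not of the kind prone to cross-hybridise, and every group holds both replicate numbers. With single arrays or lines left out, the NFE4 average ran from 2.31 to 3.15, its GDM1 change from 3.74 to 4.53 and its SKM1 change from 5.62 to 6.08, and the DCAF4L1 change ran from 2.56 to 4.38 in GDM1, from 0.38 to 1.61 in NOMO1 and from 0.50 to 2.19 in SHI1. Lines as units lowered the list counts most: CP2 and fetal globin regulators had 0 rises and 3 falls, globin and red cell genes 0 and 0, the CUL4 core 0 and 1, DCAF receptors 0 and 1, NFE4 neighbours 1 and 1, and DCAF4L1 neighbours 1 and 0. Over all genes that setting called 296 up and 529 down, against 2704 and 3335. Without probe sets prone to cross-hybridise, CP2 regulators had 7 falls, globin genes 2 rises, the CUL4 core 0 rises, DCAF receptors 1 rise and DCAF4L1 neighbours 1 rise. That setting tested only 9052 genes, with 1975 up and 2425 down. List members with no other probe set dropped out of it, so a lower count there is not only a matter of lost calls. The mean of probe sets gave 2 rises among CP2 regulators and 0 in the CUL4 core, and the filter on dim genes gave 3 falls among globin genes, 2 rises in the CUL4 core and 1 among NFE4 neighbours. The filter kept 7972 genes, with 2006 up and 2732 down, and dim list members dropped out of it as well. The 1 rise in the CUL4 core became 3 with quantile normalization, 2 with centring, 2 with trend and robust options, 0 at an adjusted p under 0.01, and 0 to 2 with arrays or lines left out. The 2 rises among DCAF receptors became 1 with quantile normalization, 0 at an adjusted p under 0.01 and 1 to 3 with arrays or lines left out. The 2 among DCAF4L1 neighbours became 1 at an adjusted p under 0.01 and 1 to 2 with arrays or lines left out. CUL4A turned to 0.01 with the mean of its probe sets and to 0.13 without those prone to cross-hybridise. Of 1701 repeats for the 39 named genes, 1635 kept direction and call, 57 lost the call (26 of them with lines as units) and 7 gained it. The cause of these shifts was not tested.

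With the replicate number as a block, the CUL4 core had 2 rises, and all genes gave 2714 up and 3346 down. The NFE4 average (2.82) and the DCAF4L1 average (3.56) cannot move in that fit, because every group holds both replicate numbers. Same-numbered arrays of a line deviated together at correlations of 0.372 in SKM1, 0.391 in SKNO1 and 0.309 in NOMO1, but at -0.097 to 0.086 in the other 4 lines, so the numbers were not taken as pairs, and a shared handling of same-numbered arrays in some lines cannot be told apart from this. Signals near the floor limit every DCAF4L1 change and the NFE4 changes in GDM1, SKM1 and THP1.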
